A study of Mus musculus with 2 samples.

Results

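Genes of cell cycle progression and DNA replication were examined in inflammatory monocytes sorted from the inflamed mouse colon. The 36 genes were chosen by symbol, 13 of them for G1/S entry and DNA replication and 23 for S/G2 and mitosis, out of 22184 genes that the array reads with an unshared probe set. A member was read from the probe set that the array annotation gives that symbol alone, and 34 of the 36 had one. Ccne2 and Ccnb1 had none and are not given values. The array data came from 1 sample of wild-type (WT) C57BL/6 mice and 1 of Nlrp6-/- mice, labelled C57Bl/6, which lack Nlrp6, a NOD-like receptor that can form an inflammasome. All mice had received the colon carcinogen azoxymethane (AOM) at 10 mg/kg by injection and then 2% dextran sodium sulfate (DSS), which damages the colon epithelium, for 5 days from day 5. Lamina propria cells were taken on day 10, and the sort kept CD11b+ Ly6C-high cells without CD3 and Ly6G. The age and number of mice behind each RNA, any pooling, and how the Nlrp6 allele was made are not given in the sources used here. Each genotype had 1 Affymetrix Mouse Gene 2.1 ST array, so differences carry no error and no p-value and describe these 2 arrays alone.

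A dividing cell passes from G1 into S phase when cyclin D and cyclin E kinases inactivate the RB family and free E2F factors, which switch on the genes for the replication machinery and for nucleotide supply. Genes of G2 and mitosis are switched on later, largely through CCAAT boxes bound by NF-Y and CHR elements (cell cycle genes homology region) bound by the DREAM and B-MYB/FOXM1 complexes. In resting cells DREAM keeps both sets silent. Ly6C-high monocytes arise from dividing bone marrow progenitors and are regarded as largely non-dividing once in the blood and tissue.

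On the arrays, levels are log2 RMA values, and a gene was taken as measured where it lay above a detection floor on at least 1 array. The floor was the 95th percentile of the levels of odorant and pheromone receptors (1401 probe sets), which monocytes are not known to use, at 3.26 in WT and 3.22 in Nlrp6-/-. By this rule 9527 of 22184 genes were measured (42.9%), as were 83 of 1391 receptor genes (5.97%), so a level just above the floor is weak evidence of a transcript. Nlrp6 itself did not reach the floor (2.32 in WT, 2.67 in Nlrp6-/-) and does not check the genotype labels. Of the monocyte markers 19 of 20 were above both floors, among them Ly6c2, a gene of the sorted antigen, at 9.06 and 9.36, and Ccr2, the receptor that brings monocytes into tissue, at 5.98 and 6.30. Ly6c1, the other gene of that antigen, was below both floors at 1.91 and 2.05. Among the markers that the sort should remove, the T cell CD3 chain genes Cd3e (4.21 in WT, 3.98 in Nlrp6-/-), Cd3d (4.52, 4.99) and Cd3g (3.33, 3.53) and the neutrophil gene Ly6g (3.32, 3.58) were above their floors.

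Most mitotic genes gave no signal above the floor in either sample, whereas most replication genes did. Of the 22 mitotic members with a probe set, 17 lay below both floors and 5 were measured (22.7%). Of the 12 G1/S and replication members, 10 were measured (83.3%) and 2 were not. Further genes of each phase, from lists not used to choose the members, lay between these shares, with 28 of 54 replication genes (51.9%) and 35 of 101 mitotic genes (34.7%). With a stricter floor (99th percentile of those receptors, 5.08 in WT and 4.90 in Nlrp6-/-) 3 of the 12 replication members and 1 of the 22 mitotic members were left. Of all 22184 genes 4946 were left, a share near that of the replication members, so their higher share depends on the floor. Ccne1, Mcm3, Rrm1 and Ccna2 were less than 0.25 above their floors on both arrays. In a bulk sample, fewer cells that express a gene and less of its RNA per cell cannot be told apart.

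**Figure D1:**
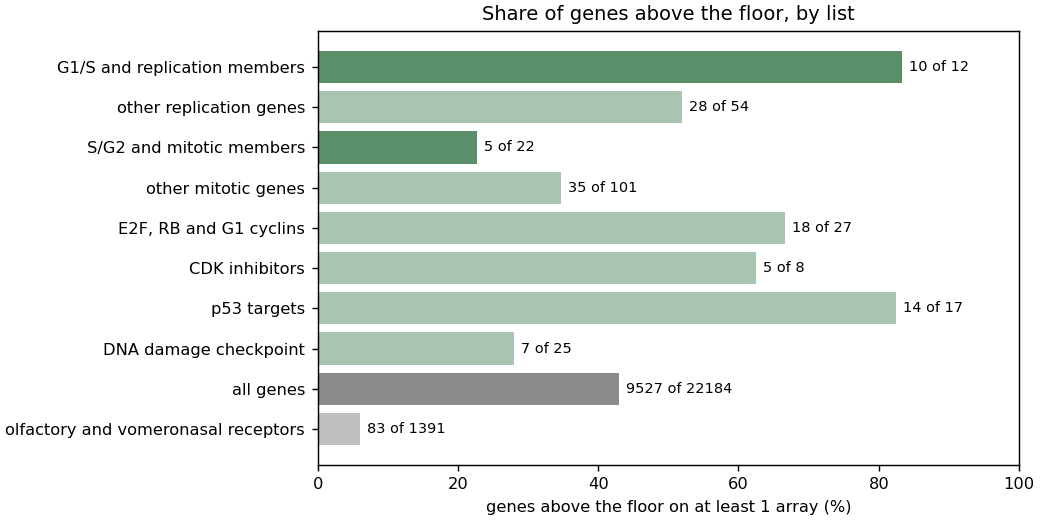
Bars give the percentage of genes in each list that lie above the detection floor on at least 1 of the 2 arrays, with the counts beside them; darker bars are the 2 groups of members and grey bars are all genes and the receptor genes that set the floor. The mitotic members, at 22.7%, lie below all genes (42.9%) and the replication members, at 83.3%, above.

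No member was 2-fold apart between the genotypes. Among the 15 measured members the count of 2-fold higher levels in Nlrp6-/- was 0, against 1.62% of all measured genes, and that of 2-fold lower levels was 0, against 0.325%. At 1.5-fold the counts were again 0 and 0, against 6.21% higher and 3.05% lower over all measured genes. With 15 members, counts of 0 lie close to these background shares and are no result about the members. A member below the floor on 1 array was counted at its bound, the other level against the floor. The median log2 difference, Nlrp6-/- minus WT, was 0.04 over the 10 replication members, 0.02 over the 5 mitotic members and 0.01 over all measured genes. Of the 15 measured members 11 had a higher level in Nlrp6-/-, by any amount, which was so for 51.6% of all measured genes. Among these 11, Mcm7, Tyms and Ccna2 were above the floor in Nlrp6-/- alone, and 0 members were above it in WT alone. Entry by the Nlrp6-/- level favours that direction, so the count of 11 is not read as a lean. For 8 of the 15 the difference was smaller than 0.19, the SD of the receptor probe sets' own differences, and the signs of Ccne1, Ccna2 and Top2a turned under another scaling of the arrays.

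**Figure D2:**
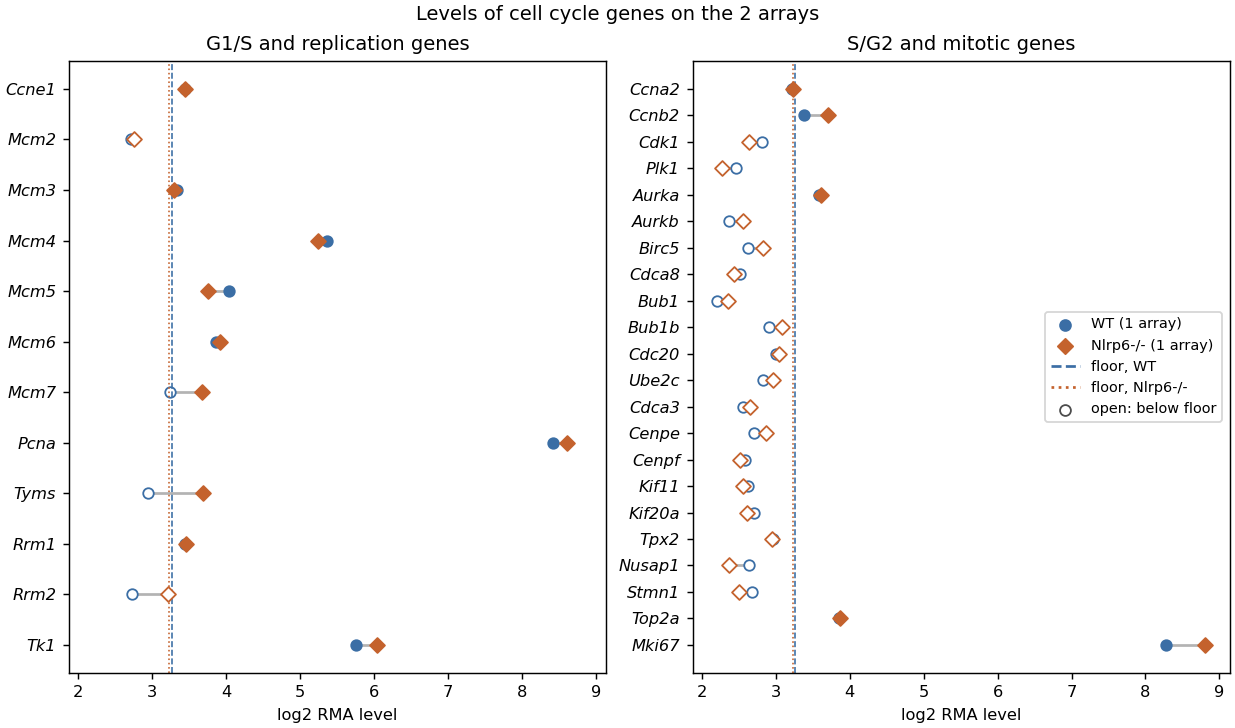
Each row is a member, with its log2 RMA level in WT (blue circle, 1 array) and in Nlrp6-/- (orange diamond, 1 array); vertical lines are the floors of 3.26 and 3.22, and open symbols lie below them. Mki67, Pcna, Tk1 and Mcm4 lie more than 1 log2 unit above the floor on both arrays, and 17 of the 22 mitotic members lie below it on both.

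The promoters of the members differ by phase in the motifs they hold. RefSeq sequences of mouse build GRCm38.p6, from 250 bases before to 50 after the start, were given for 29 members, 11 of the G1/S and replication group and 18 of the mitotic group. Matches were counted on both strands for the CCAAT box (CCAAT), the CHR (TTTGAA or TTCGAA, the latter its own reverse complement) and the E2F motif (TTTCCCGC, TTTCGCGC, TTTGCCGC or TTTGGCGC, whose matches on opposite strands can overlap each other). The CHR was in 14 of 18 mitotic promoters (77.8%) and in 2 of 11 of the replication group (18.2%), against 19.4% of all 27025 promoters. The E2F motif had the opposite order, in 4 of 11 replication promoters (36.4%) and 1 of 18 mitotic ones (5.56%), against 2.32% of all. All 4 were MCM genes (Mcm3, Mcm5, Mcm6 and Mcm7), and Ccne1, Mcm2, Pcna, Tyms, Rrm1, Rrm2 and Tk1 had no match. The CCAAT box was in 88.9% of the mitotic and 72.7% of the replication promoters, against 37.9% of all. All 14 mitotic promoters with a CHR also held a CCAAT box, a pair found in 7.70% of all promoters. The 90 promoters of further mitotic genes held the CHR in 61.1%, and the 47 of further replication genes held the E2F motif in 29.8%. A match is a stretch of letters, and binding was not measured here.

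**Figure D3:**
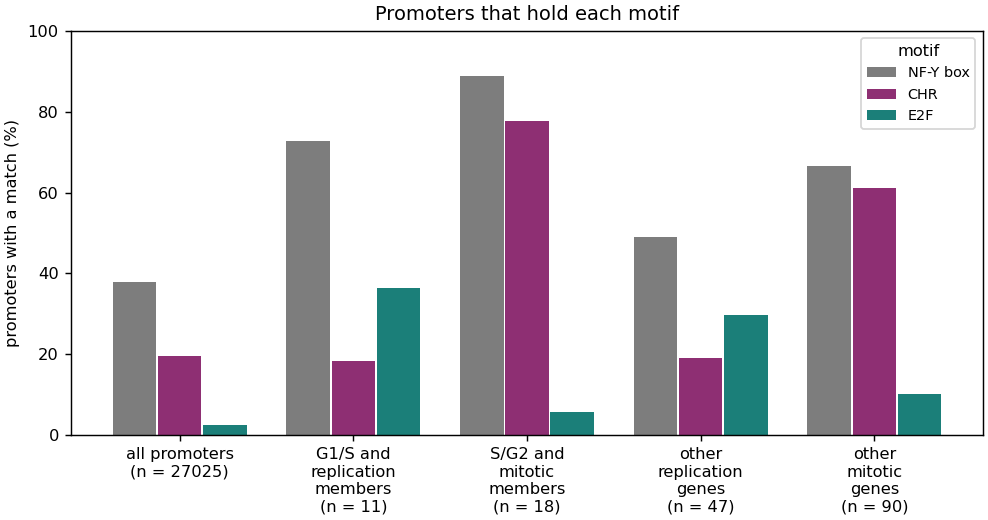
Bars give the percentage of promoters with at least 1 match to the CCAAT box (labelled NF-Y box), the CHR or the E2F motif, for all promoters and for 4 groups of cell cycle genes, with the number of promoters under each group. The CHR bar is highest in the mitotic members, at 77.8%, and the E2F bar in the replication members, at 36.4%.

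Promoters of 6 members above the detection floor are shown because they hold these motifs, in capitals, in the stretch before the start. ATTGG and TTCAAA are the CCAAT box and the CHR read on the opposite strand. Mki67 (chr7:135716457-135716582), Ccnb2 (chr9:70421556-70421736) and Top2a (chr11:99024192-99024431) are mitotic, and all 3 lie on the minus strand.
Mki67: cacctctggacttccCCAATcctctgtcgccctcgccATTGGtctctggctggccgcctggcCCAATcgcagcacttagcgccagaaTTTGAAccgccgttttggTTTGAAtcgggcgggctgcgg
Ccnb2: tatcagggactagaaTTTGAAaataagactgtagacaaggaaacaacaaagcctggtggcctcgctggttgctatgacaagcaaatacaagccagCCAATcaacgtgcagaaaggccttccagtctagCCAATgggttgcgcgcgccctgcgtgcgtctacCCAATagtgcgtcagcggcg
Top2a: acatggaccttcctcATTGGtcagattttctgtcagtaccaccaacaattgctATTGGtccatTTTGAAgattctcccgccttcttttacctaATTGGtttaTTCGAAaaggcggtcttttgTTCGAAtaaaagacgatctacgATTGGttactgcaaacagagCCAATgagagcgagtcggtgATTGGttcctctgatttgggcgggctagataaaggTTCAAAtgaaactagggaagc
Of the replication group, Mcm7 (chr5:138171890-138172071) and Mcm6 (chr1:128359706-128359830) lie on the minus strand and Mcm5 (chr8:75109341-75109506) on the plus strand.
Mcm7: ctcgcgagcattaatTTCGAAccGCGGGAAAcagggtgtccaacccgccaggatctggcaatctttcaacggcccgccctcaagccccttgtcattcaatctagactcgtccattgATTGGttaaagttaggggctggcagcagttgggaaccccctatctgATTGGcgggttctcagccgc
Mcm6: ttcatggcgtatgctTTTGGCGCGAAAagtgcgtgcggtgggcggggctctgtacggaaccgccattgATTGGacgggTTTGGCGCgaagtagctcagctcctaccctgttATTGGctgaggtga
Mcm5: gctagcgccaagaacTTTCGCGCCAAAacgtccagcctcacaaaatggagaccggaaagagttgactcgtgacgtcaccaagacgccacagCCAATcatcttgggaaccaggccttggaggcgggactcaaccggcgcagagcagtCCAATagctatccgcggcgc
Mki67 holds 3 CCAAT boxes and then 2 CHR elements, at 116 and 98 bases before its start. Top2a holds 6 CCAAT boxes and 4 CHR elements in its stretch, and Ccnb2 holds 3 and 1. Among the replication promoters, Mcm5 and Mcm6 each have overlapping E2F matches on opposite strands, which gives runs of capitals longer than the motif. Mcm7 has 1 E2F match and 1 CHR.

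Cyclin E1 (Ccne1), the partner of CDK2 at the start of S phase, was at 3.44 on both arrays, a little above the floors. The MCM proteins form the ring-shaped helicase that opens DNA at replication origins, and 5 of its 6 subunits were measured. Mcm4 was at 5.36 in WT and 5.24 in Nlrp6-/-, more than 1 unit above both floors. Mcm5 was at 4.04 in WT and 3.75 in Nlrp6-/-, differing by -0.29, the lowest of any measured member. Mcm6 was at 3.86 and 3.92 and Mcm3 at 3.34 and 3.29. Mcm7 went the other way from Mcm5: it was at 3.23 in WT, below the floor, and at 3.67 in Nlrp6-/-, at least 1.33-fold higher. Mcm2 was below the floor on both arrays, at 2.72 and 2.75. The 5 measured subunits thus had no common direction, with a median of -0.04. The differences of Mcm3, Mcm4 and Mcm6 were smaller than the receptor SD of 0.19.

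Pcna, the sliding clamp that tethers DNA polymerases and also serves DNA repair, was at 8.42 in WT and 8.62 in Nlrp6-/-, far above the floor in both and 0.19 apart. The nucleotide supply genes differed more among themselves. Tk1, the thymidine kinase of the salvage pathway, was at 5.75 in WT and 6.04 in Nlrp6-/-, differing by 0.28. Tyms, the thymidylate synthase that makes dTMP from dUMP, was at 2.94 in WT and 3.68 in Nlrp6-/-. Its WT level was below the floor, so it can be stated only as at least 1.34-fold higher, or 0.42 on the log2 scale, a bound that 11.9% of all measured genes reached. Ribonucleotide reductase, which makes deoxynucleotides, has a large subunit, Rrm1, that was at 3.44 and 3.46. Its small subunit gene Rrm2 did not reach the floor on either array (2.72 in WT, 3.21 in Nlrp6-/-). A second Rrm2 probe set gave 2.71 and 2.69, so the higher value of the first was not seen there.

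Of the mitotic members Mki67, the gene of the Ki-67 protein that coats mitotic chromosomes and marks cycling cells, was the exception to the low signal. Its level was 8.28 in WT and 8.81 in Nlrp6-/-, 5.02 and 5.58 above the floors. The difference of 0.53 on the log2 scale is 1.44-fold, under the 1.5-fold line, and 7.83% of all measured genes were at least as far on the high side. The other 21 mitotic members with a probe set had levels of 2.20 to 3.86 in WT and of 2.27 to 3.87 in Nlrp6-/-, and a median difference of 0.01 over the 4 measured. Probe sets differ in their response, so the level of Mki67 and that of another gene are not on a common scale, but only Mki67 among the 22 stood clear of the stricter floor. Mki67 has 1 probe set of its own on this array, and no second one checks it.

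The other 4 measured mitotic members lay near the floor. Top2a, the topoisomerase that untangles sister DNA, was at 3.86 in WT and 3.87 in Nlrp6-/-. Aurka, the kinase of centrosome maturation and spindle assembly, was at 3.58 and 3.61. They differed by 0.01 and 0.02, both less than the receptor SD of 0.19. Ccnb2, a cyclin that activates CDK1 for mitosis, was at 3.38 in WT and 3.70 in Nlrp6-/-. Its difference of 0.32 was reached by 16.9% of all measured genes. Ccna2, the cyclin of S and G2, was at 3.22 in WT, below its floor, and at 3.23 in Nlrp6-/-, just above it.

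The members below both floors act at several steps of mitosis. The kinases of mitotic entry Cdk1 (2.81 in WT and 2.63 in Nlrp6-/-) and Plk1 (2.46 and 2.27) were among them. Of the chromosomal passenger complex, which corrects chromosome attachment, the kinase Aurkb (2.36 and 2.55), Birc5 (2.62 and 2.82) and Cdca8 (2.52 and 2.43) were all unmeasured. So were the spindle checkpoint kinases Bub1 (2.20 and 2.36) and Bub1b (2.91 and 3.08), and, of the degradation machinery that ends mitosis, Cdc20 (3.01 and 3.04) and the E2 enzyme Ube2c (2.82 and 2.96). Cdca3, which promotes mitotic entry, was at 2.55 and 2.65. The kinetochore proteins Cenpe (2.71 and 2.86) and Cenpf (2.58 and 2.52) were unmeasured too. The kinesin motors Kif11 (2.62 and 2.56) and Kif20a (2.71 and 2.60), the spindle assembly factors Tpx2 (2.97 and 2.94) and Nusap1 (2.63 and 2.37), and the microtubule destabiliser Stmn1 (2.68 and 2.51) completed the group. Values below the floor have no order, so none of these differences is read as one. Over the 19 unmeasured members of both groups the highest level was 3.01 in WT and 3.21 in Nlrp6-/-.

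**Figure D4:**
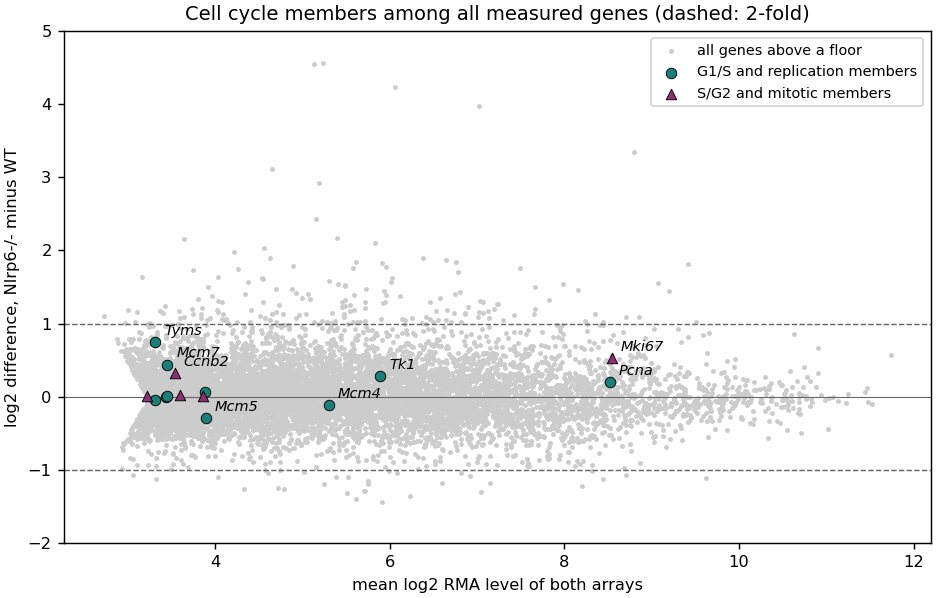
Each point is a measured gene, with its mean log2 RMA level on the horizontal axis and its log2 difference, Nlrp6-/- minus WT, on the vertical axis; members are coloured by group and dashed lines mark 2-fold. All 15 measured members lie inside the dashed lines, from -0.29 for Mcm5 to 0.74 for Tyms, whose WT level was below the floor and whose bound of 0.42 is under the 0.53 of Mki67.

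Further genes of the pathway came from lists chosen by textbook role. Of the 28 measured replication genes 2 passed 1.5-fold on the high side in Nlrp6-/- (7.14%, against 6.21% of all measured genes) and 1 was lower (3.57%, against 3.05%), with a median of 0.07, or 0.04 with bounds. Rpa3, a subunit of the single-strand DNA binding protein, had levels of 4.50 (WT) and 5.28 (Nlrp6-/-), but the mean of its 2 probe sets differed by 0.18. Its other probe set was thus lower in Nlrp6-/-, against the direction of the one used. Pole3, an accessory subunit of DNA polymerase epsilon, was at 4.93 and 5.53. Pold2, of polymerase delta, was at 2.96, below the floor, and 3.57. Its bound of 0.31 was under 1.5-fold, and 17.8% of all measured genes reached it. In the other direction Dnmt1, which copies DNA methylation onto new strands, was at 4.92 in WT and 4.10 in Nlrp6-/-. On the low side 0.913% of measured genes reached its difference of -0.82.

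Of the 35 measured further mitotic genes 2 were at least 1.5-fold higher (5.71%, against 6.21% of all measured genes) and 0 were lower (against 3.05%), with a median of 0.07. By any amount, 24 were higher and 11 lower. That is 68.6% higher, against 51.6% of all measured genes and 67.9% of the measured further replication genes. The count was not tested and is not read as a lean. Plk4, the kinase that starts centriole duplication, was the only one of the 35 that was 2-fold apart, where 1.62% of all measured genes were 2-fold higher. It was at 3.30 in WT, just above the floor of 3.26, and 4.38 in Nlrp6-/-, differing by 1.08, and it was not measured under the stricter floor. Cks2, a small protein that binds cyclin-dependent kinases, had levels of 7.13 in WT and 7.99 in Nlrp6-/-, and the mean of its 4 probe sets gave a like difference of 0.88. Ube2s, which extends ubiquitin chains for the anaphase-promoting complex, was at 5.69 and 6.26. Smc4, a condensin subunit, was at 7.18 and 7.65.

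The regulators of G1 were measured more often than the mitotic genes, at 18 of 27. They had a median of 0.14, with 2 at least 1.5-fold higher (11.1%, against 6.21% of all measured genes) and 1 lower (5.56%, against 3.05%). Ccnd2, a D-type cyclin that starts G1 progression, was at 6.05 in WT and 6.65 in Nlrp6-/-, differing by 0.59, and Ccnd3 was at 3.36 and 3.90. Myc, a transcription factor of cell growth, was at 5.19 and 5.78. Rbl2, the p130 pocket protein of the DREAM complex in resting cells, was lower, at 6.55 in WT and 5.91 in Nlrp6-/-, differing by -0.64. These differences passed 1.5-fold for Ccnd2, Myc and Rbl2 only.

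Among the CDK inhibitors 5 of 8 were measured. Of the 5, only Cdkn2d was at least 1.5-fold higher (20.0%, against 6.21% of all measured genes), and 0 were lower (against 3.05%). Cdkn1a, the p21 protein that halts cells in G1 and is a p53 target, was far above the floor in WT (10.97) and in Nlrp6-/- (10.47), and differed by -0.50. Cdkn2d, the INK4 inhibitor p19, was at 3.41 in WT and 4.19 in Nlrp6-/-, differing by 0.78. Cdkn2b, the INK4 inhibitor p15, was at 3.34 and 3.45, and the CDK-binding phosphatase gene Cdkn3 was at 3.73 and 3.83. Cdkn1b, the p27 inhibitor of resting cells, named after its values were seen, was at 8.03 and 7.93. The inhibitors thus had no common direction.

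Of the 17 p53 target genes with a probe set 14 were measured, with a median of -0.06. At least 1.5-fold higher were 2 (14.3%, against 6.21% of all measured genes), and 2 were lower (14.3%, against 3.05%). Plk2, a kinase induced by stress and mitogens, was at 8.82 in WT and 7.80 in Nlrp6-/-, differing by -1.02. With a loess correction for level it was at -0.999, just short of 2-fold. Sfn, the 14-3-3 sigma protein that holds CDK1 in the cytoplasm after DNA damage, was at 5.14 and 4.35. Btg2, an antiproliferative gene, was at 7.85 and 8.52, and Trp53inp1 at 6.05 and 6.71, both higher. DNA damage checkpoint genes were mostly unmeasured, with 7 of 25 above a floor and a median of -0.04. Of the 7, only H2ax was at least 1.5-fold lower (14.3%, against 3.05% of all measured genes), and 0 were higher (against 6.21%). H2ax, the histone variant phosphorylated at DNA breaks, differed by -0.59, from 4.20 in WT to 3.61. Mdc1, which binds it, was at 4.95 and 4.66. Topbp1 was at 5.43 and 5.71 and Rad17 at 4.39 and 4.62.

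**Figure D5:**
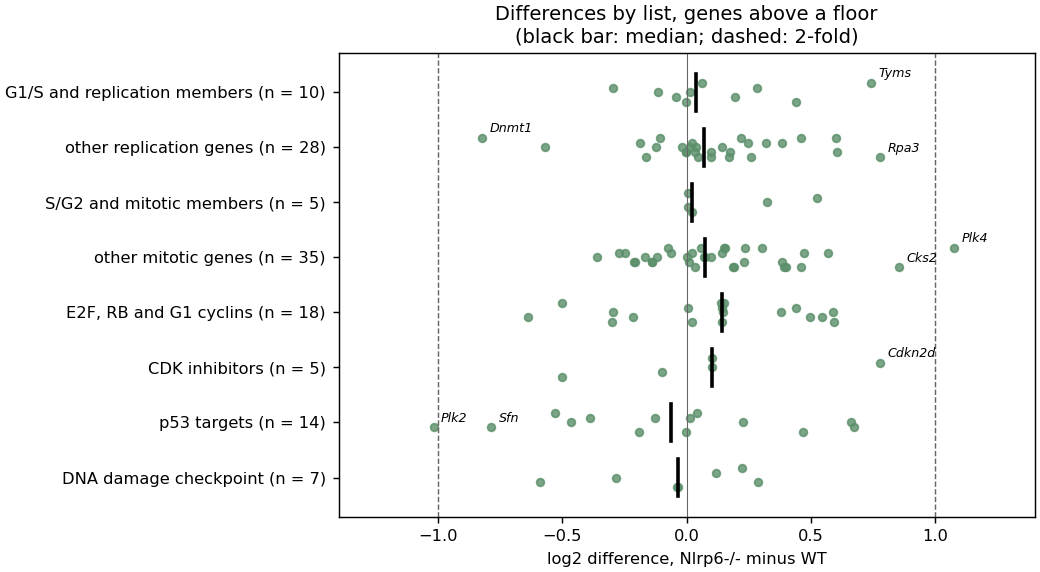
Each point is a measured gene and the horizontal axis is its log2 difference, Nlrp6-/- minus WT; rows are the 2 groups of members and 6 further lists, with the number of genes, black bars are medians and dashed lines mark 2-fold. The medians lie between -0.06 and 0.14, and only Plk4 and Plk2 lie beyond 2-fold.

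Markers of several other cell types were higher in the Nlrp6-/- sample, and their part in the higher levels of Mki67, Tyms and Plk4 was not tested. Of 20 measured epithelial markers 9 were at least 2-fold higher and 0 lower, against 1.62% and 0.325% of all measured genes, with a median of 0.88. The linear levels of the list, summed over its 24 genes with a probe set (as the other lists were), came to 477 in WT and 1007 in Nlrp6-/-. The first 3 markers of that list were all higher: Epcam was at 4.71 and 5.74, Krt8 at 5.68 and 6.67 and Krt18 at 4.22 and 5.63. Of 12 markers of the dividing crypt base and transit zone 11 were below the floor on both arrays, including Lgr5 (2.43 and 2.25), Olfm4 (2.07 and 2.21) and Ascl2 (2.56 and 2.00), where a difference could not be read. The one measured, Slc12a2, was at 3.89 and 3.60. The summed level of the list, 86.2 in WT and 85.5 in Nlrp6-/-, is therefore mostly background. For B and plasma cells the median was 0.40 over 14 measured markers, with a sum of 1435 in WT and 2102 in Nlrp6-/-. The largest part of that sum was Jchain, a plasma cell gene, at 9.22 and 10.09. The B cell genes Ms4a1, Pax5, Ebf1, Fcrla and Cd22 were below both floors. Of the others, Cd79a (4.62 and 5.36) and Cd79b (4.82 and 4.97) were higher and Blk (3.27 and 3.24) lower. Neutrophil markers had a median of 0.22 over 12 (1116 and 1420), stromal and endothelial markers 0.19 over 17 (882 and 1495), and T and NK markers 0.24 over 12 (272 and 322). At least 2-fold higher were 3 of the 12 neutrophil markers and 3 of the 17 stromal and endothelial ones. The T and NK, B and plasma and monocyte lists each had 1. In these 5 lists 0 were 2-fold lower. In the stromal and endothelial list 13 were higher and 4 lower, with the matrix genes Mgp (7.43 and 8.88) and Dcn (7.48 and 8.46) among the higher. Its endothelial genes had no common direction: Pecam1 (6.40 and 6.65) and Kdr (4.64 and 4.82) were higher, Cdh5 (3.88 and 3.49) was lower, and Vwf and Tek were unmeasured. Monocyte markers had a median of 0.07 over 19, with sums of 10189 and 10106.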

How the data were processed

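RNA of 1 WT and 1 Nlrp6-/- sample, grouped by the genotype in the labels, was hybridised to 1 array each. Per the labels' protocols, the authors amplified 10 ng of RNA to cDNA and computed robust multiarray averages (RMA) with the oligo package in R 2.15.1. RMA equalises the arrays' distributions by quantile normalization, so a shift of all transcripts on 1 array cannot be seen. The deposited values are log2 levels, whose median over probe sets is 2.87 (WT) or 2.84 (Nlrp6-/-). The set of arrays that RMA ran on is not stated in these labels.

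Of 41345 probe sets, 23525 had 1 gene symbol in the platform annotation, 1810 several and 16010 none. For a gene with several probe sets of its own, the one with the highest mean was used. Differences are Nlrp6-/- minus WT, computed in Python 3.11.15 with pandas 2.3.3. The script was tested on simulated arrays. With 1 array a group no test was possible, and this number limits the precision.

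The members and lists were chosen with earlier results of these data known. All 36 members are named. Of each further cell cycle list, the genes named are up to 4 measured ones with the largest differences and any 2-fold apart, and of the marker lists the first 3 symbols where levels are given, with Ly6g added for the sort. Slc12a2, Incenp, Bub3, Cenpa, Zwint and the genes named from the B and plasma and the stromal and endothelial lists were added after their values were seen. Motifs were counted in the first listed start of each gene. Promoters were chosen among measured members by the largest difference and by holding a CHR or an E2F motif in the stretch before the start. Pcna and Aurka held only CCAAT boxes there and are not shown. Marker lists were monocyte, progenitor, growth factor receptor, epithelial, crypt, B and plasma, T and NK, neutrophil, stromal and endothelial, dendritic, and erythroid and mast cells. Alternatives were 3 other scalings of the arrays, a stricter floor or none, averaging of probe sets per gene, other fold thresholds, the mean over members, and the mitotic group without Stmn1, Mki67 and Top2a.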

Additional observations from a re-analysis of the deposited data

How the results depend on the processing

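No member was called higher or lower under any of the 8 alternatives for each count: 3 other scalings, 2 other floors, the mean of probe sets, and thresholds of 1.5-fold and 3-fold. With no call at 1.5-fold, the 3-fold threshold and the stricter floor could not add one, so those counts are no further check. The median of the replication members stayed between 0.03 and 0.19. The stricter floor (99th percentile), which left 4946 genes in place of 9527, moved 3 medians by more than 0.19: the mitotic members to 0.53, where Mki67 alone was left, the CDK inhibitors to -0.30 and the p53 targets to -0.39. The other 64 values of the counts and lists, with those fixed counts among them, stayed within 0.19 or at the same count. Of the values of single genes 3 moved by more than that and 230 did not: Rrm2 to 0.23 and Rpa3 to 0.18 with the mean of probe sets, and Rrm2 to -0.02 on its other probe set. No called value changed sign. No paired analysis was possible because each genotype had 1 array. Signal over background limits most of the mitotic members, which lie below the floor.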

Other observations

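Receptors through which growth factors sustain or expand myeloid cells were measured in 6 of 7 cases, with a median difference of -0.08. None was at least 1.5-fold apart in either direction, against 6.21% higher and 3.05% lower over all measured genes. With 6 receptors, counts of 0 lie close to these shares and are no result about the receptors. Csf1r, the receptor for the macrophage growth factor M-CSF, was at 9.40 in WT and 9.28 in Nlrp6-/-. Csf2ra and Csf2rb, the GM-CSF receptor chains, were at 5.94 and 5.69 and at 7.61 and 7.21. Genes of bone marrow progenitors and immature granulocytes were mostly below the floor, with 9 of 14 unmeasured. Of the first 3 in that list, Cd34 was at 3.40 and 3.30 and Kit, the stem cell factor receptor, at 5.84 and 5.82, while Flt3 was below the floor at 3.12 and 3.09. Dendritic cell markers had a median of -0.13 over 7 measured, and all 10 erythroid and mast cell markers with a probe set were below the floor on both arrays.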
